A study of Homo sapiens with 6 samples.

Results

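The genes described here are 40 nuclear-encoded subunits of respiratory complexes II, III, IV and V, with CYCS, the gene of cytochrome c, counted among them. They were taken by name: 4 genes of complex II, 9 of complex III, CYCS, 11 of complex IV and 15 of complex V. All 40 were found among the 58219 gene IDs of the count tables, and all 40 were among the 15765 genes with enough reads to be tested. RNA sequencing was done on U2OS cells, a human osteosarcoma line, in 3 libraries that received a short hairpin RNA (shRNA) against E4F1 and 3 libraries that received a scramble control shRNA. Cells of both groups were grown in DMEM with FBS, infected for 24 h and then selected with puromycin for 48 h, and RNA was taken at 72 h. The labels speak of 3 independent pools without stating if equal numbers mark pools handled together, and p-values measure the spread between pools only. Reads in genes numbered 16159934 to 16892139 per E4F1 shRNA library and 14947085 to 16284450 per control shRNA library.

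Complex II, succinate dehydrogenase, passes electrons from succinate to ubiquinone and is also an enzyme of the citric acid cycle. Complex III passes them from ubiquinol to cytochrome c, and complex IV, cytochrome c oxidase, hands them to oxygen. Complexes III and IV pump protons, and complex V, the ATP synthase, lets the protons return through a rotating ring of c subunits and makes ATP. Complex II is encoded in the nucleus alone, whereas complexes III, IV and V are built from nuclear-encoded subunits and a few subunits of mitochondrial DNA. E4F1 is a zinc finger transcription factor with known targets among mitochondrial and cell cycle genes.

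E4F1 itself, at chr16:2223566-2235742 on the plus strand (GRCh38), had 3.176, 3.147 and 2.497 CPM in the E4F1 shRNA libraries and 15.56, 17.66 and 19.05 CPM in the control shRNA libraries, where CPM are counts scaled to the total reads in genes of each library, with TMM factors. The groups did not overlap, and the log2 fold change, E4F1 shRNA over control shRNA throughout, was −2.57 ± 0.15 (SE, edgeR quasi-likelihood test, adjusted p = 7.65e-10). Genes that mark bone and mesenchymal cells summed to 5198 to 5912 CPM per library, against 21.0 to 28.3 CPM for epithelial, 2.40 to 6.98 CPM for blood and 3.59 to 4.27 CPM for endothelial markers. Of 44 cell cycle genes, 27 rose (61.4%, against 14.4% of all genes tested) and 0 fell in E4F1 shRNA libraries, with a median log2 fold change of 0.27. Their summed level was 10517 to 11408 CPM in E4F1 shRNA libraries and 8199 to 10257 CPM in control shRNA libraries, and control library 2 was the nearest to the E4F1 shRNA libraries. The part of this shift in the results below was not tested. A fit with the cell cycle level as a covariate is given beside the counts, but it cannot decide this. All 44 genes had log2 fold changes above 0, and the ranges of their summed level did not overlap between groups. The covariate thus largely ran with the group, and the fit cannot separate it from the effect of the shRNA. Calls lost or kept in that fit therefore do not show what depends on the cell cycle.

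Across the 40 subunit genes, 2 rose and 12 fell in E4F1 shRNA libraries at an adjusted p below 0.05 over all genes tested, and 26 did not pass. Of all genes tested, 28.9% passed, 14.4% upward and 14.4% downward, so the share of subunit genes that rose was 5% and the share that fell 30%. The falls lay in complexes IV and V, with 5 of 11 and 7 of 15 genes, and the rises were UQCRQ in complex III and CYCS. In complex II 0 of 4 genes passed, 0 had an unadjusted p below 0.05 by edgeR, and DESeq2 and limma-voom also called 0. Changes were small: the log2 fold changes ran from −0.41 for COX4I1 to 0.55 for UQCRQ, with a median of −0.09 over the 40 genes and −0.01 over all genes tested. In bulk RNA, less of a transcript in each cell and fewer cells that express it cannot be told apart. Log2 fold changes were below 0 for 30 of the 40 genes and for 8097 of the 15765 genes tested. The 3 E4F1 shRNA libraries lay all above or all below the 3 control shRNA libraries for 6 and 14 subunit genes, where 20.7% and 21.1% of all genes tested did so. With the cell cycle level as a covariate, 3 subunit genes passed (UQCRQ, COX4I1 and ATP5MC2), against 5.59% of all genes tested. With a correction for transcript length, chosen after the data were seen, 5 rose and 4 fell, against 14.5% and 13.9% of all genes tested. Without E4F1 library 1, 2 rose and 5 fell, against 10.8% and 8.79% of all genes tested, and without control library 3, 2 rose and 6 fell, against 10.4% and 9.34%.

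**Figure D1:**
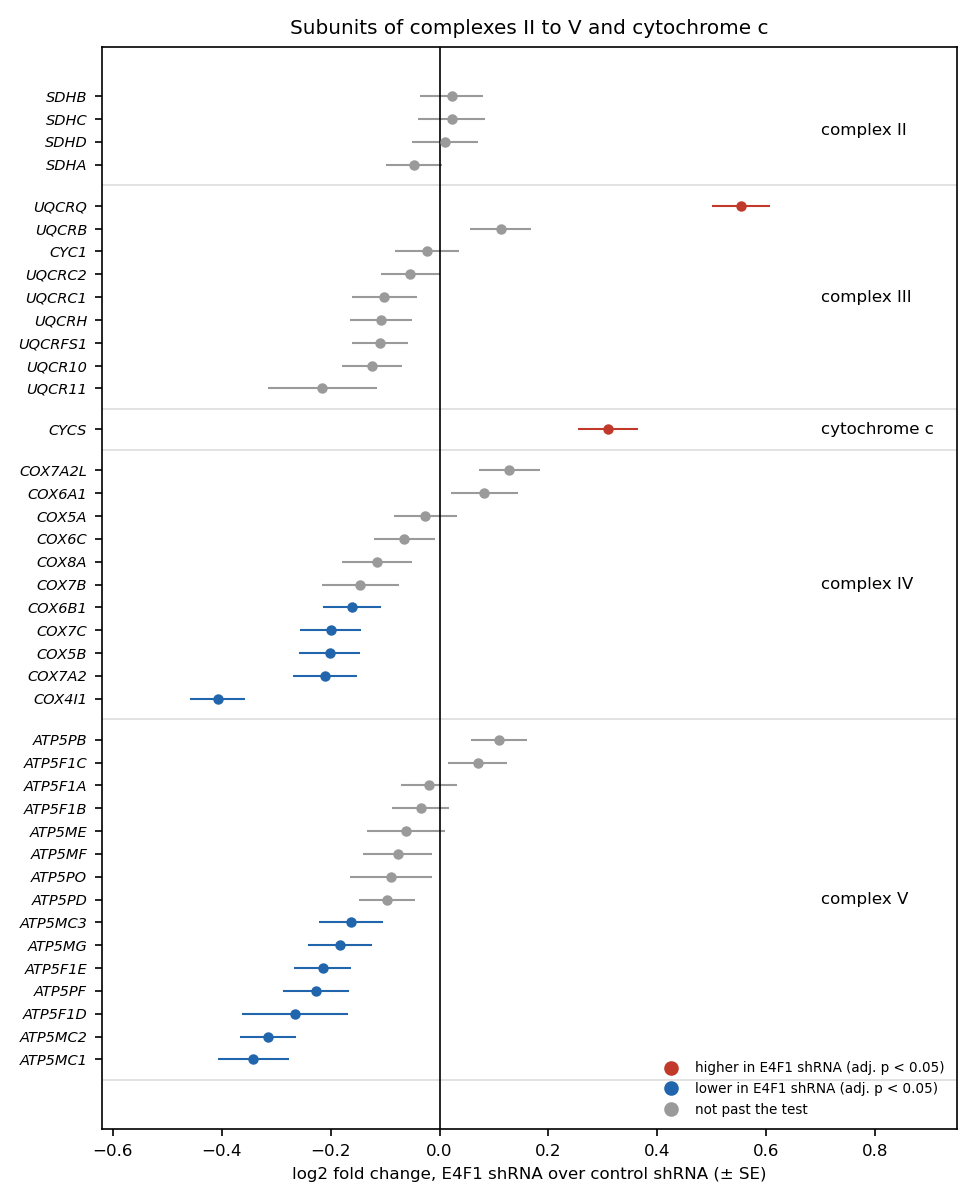
Log2 fold change, E4F1 shRNA over control shRNA, of each of the 40 genes by complex, with the standard error of the edgeR fit as a bar and colour for an adjusted p below 0.05. The 12 falls sit in complexes IV and V, UQCRQ stands apart from the other complex III genes at 0.55, and the 4 complex II genes lie within 0.05 of 0.

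The 5 genes with the largest absolute changes were UQCRQ, CYCS, COX4I1, ATP5MC1 and ATP5MC2, and their promoters are printed so that their sequences can be set beside the values that follow. Each runs 5′ to 3′ from 250 bases before to 50 bases after the RefSeq start site on GRCh38.p14. Capitals mark matches, on either strand, to 5 short motifs: GCGCANGCG (NRF1), CCGGAAG (ETS factors such as GABPA), AAGATGG (YY1), TGACGTNA (the cAMP response element, whose core the known E4F1 site shares) and GGGCGG (SP1).
UQCRQ, chr5:132866392-132866691, plus strand: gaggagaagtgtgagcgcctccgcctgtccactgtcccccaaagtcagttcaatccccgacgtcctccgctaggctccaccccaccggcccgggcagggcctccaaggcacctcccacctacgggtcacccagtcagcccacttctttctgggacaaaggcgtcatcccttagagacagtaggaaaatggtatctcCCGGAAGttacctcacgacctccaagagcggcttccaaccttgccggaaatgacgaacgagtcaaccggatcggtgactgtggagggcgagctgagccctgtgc
CYCS, chr7:25125211-25125510, minus strand: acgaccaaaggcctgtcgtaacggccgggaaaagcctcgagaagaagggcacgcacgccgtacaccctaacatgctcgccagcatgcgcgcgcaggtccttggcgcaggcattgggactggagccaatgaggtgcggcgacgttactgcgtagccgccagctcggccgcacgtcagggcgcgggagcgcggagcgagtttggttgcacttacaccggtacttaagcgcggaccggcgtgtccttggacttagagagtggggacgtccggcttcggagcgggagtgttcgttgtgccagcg
COX4I1, chr16:85799445-85799744, plus strand: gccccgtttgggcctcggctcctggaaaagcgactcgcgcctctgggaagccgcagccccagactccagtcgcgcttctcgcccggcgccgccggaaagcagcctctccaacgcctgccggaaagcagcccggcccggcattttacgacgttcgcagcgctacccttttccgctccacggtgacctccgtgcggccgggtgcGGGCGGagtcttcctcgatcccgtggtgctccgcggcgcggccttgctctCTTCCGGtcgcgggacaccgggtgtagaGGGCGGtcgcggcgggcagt
ATP5MC1, chr17:48892537-48892836, plus strand: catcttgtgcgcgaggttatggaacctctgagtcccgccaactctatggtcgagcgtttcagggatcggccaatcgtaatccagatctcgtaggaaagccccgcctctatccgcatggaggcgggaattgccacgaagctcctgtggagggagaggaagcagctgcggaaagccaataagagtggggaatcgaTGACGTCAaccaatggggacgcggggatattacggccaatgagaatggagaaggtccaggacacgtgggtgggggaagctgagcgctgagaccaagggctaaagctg
ATP5MC2, chr12:53676034-53676333, minus strand: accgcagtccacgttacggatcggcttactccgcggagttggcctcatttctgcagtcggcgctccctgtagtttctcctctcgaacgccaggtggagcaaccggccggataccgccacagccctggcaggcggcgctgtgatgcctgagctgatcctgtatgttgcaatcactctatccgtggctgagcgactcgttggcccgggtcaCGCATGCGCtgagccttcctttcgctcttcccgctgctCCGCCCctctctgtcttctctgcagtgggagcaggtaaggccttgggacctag
In these windows UQCRQ has an ETS match 54 bases before the start, and CYCS has no exact match to any of the 5 motifs. Any base was allowed only at N, so sites that differ elsewhere in a letter were not marked. COX4I1 has an ETS match at position 3 after the start and SP1 matches 48 bases before and 31 bases after it. ATP5MC1 has the cAMP response element 57 bases before the start, and ATP5MC2 has an NRF1 match 41 bases and an SP1 match 3 bases before it. Of the 40 genes, 32 had a promoter in the RefSeq table. The ETS motif was in 43.8% of them, against 10.3% of all 35116 promoters and 15.9% of promoters of tested genes. The NRF1 motif was in 37.5%, against 7.52% and 12.01%, the YY1 motif in 28.1%, against 5.84% and 6.78%, and the cAMP response element in 9.38%, against 3.01% and 4.02%. The SP1 motif was in 56.3%, against 45.0% and 64.4%. Of these promoters, 10 belonged to genes that fell and 20 to genes that did not pass. The ETS motif was in 5 of the 10 and 8 of the 20, and the NRF1 motif in 2 and 10. The YY1 motif was in 3 and 6, and the SP1 motif in 5 and 13. Whether motifs go with the calls was not tested. The 3 promoters with the cAMP response element belonged to SDHB, ATP5ME and ATP5MC1, of which ATP5MC1 alone passed the test. These matches are letters in a window and were not tested for binding.

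No gene of complex II moved past the test. SDHA, the flavoprotein that oxidises succinate, had 121.4, 119.4 and 122.4 CPM in E4F1 shRNA libraries and 120.7, 125.7 and 128.6 CPM in control shRNA libraries, a log2 fold change of −0.05 ± 0.05 (SE, with an adjusted p by edgeR of 0.542). SDHB, the iron-sulfur subunit, had 105.6, 103.5 and 94.6 CPM against 102.2, 97.2 and 99.5 CPM in control shRNA libraries (0.02 ± 0.06 on the log2 scale, edgeR adjusted p = 0.804). The groups overlapped for both genes. SDHC and SDHD, the membrane anchors that hold the haem, had log2 fold changes of 0.02 and 0.01 with overlapping groups. The 4 genes together summed to 393 ± 11.3 CPM in E4F1 shRNA libraries and 393 ± 2.07 CPM in control shRNA libraries (SD, n = 3 each). Named pseudogenes of SDHA held reads equal to 6.10% of the SDHA reads in E4F1 shRNA libraries and 6.17% in control shRNA libraries. For every other gene of the 40 this share was 0.586% or less in E4F1 shRNA libraries. The share holds only reads assigned to a pseudogene named by the gene symbol followed by P. Reads lost to near-identical copies are not in it, so they leave the level of SDHA and of other genes with pseudogenes uncertain.

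In complex III, UQCRQ rose and the other 8 genes did not pass. UQCRQ, at chr5:132866560-132868031 on the plus strand, encodes a small accessory subunit also known as the ubiquinone-binding protein. It had 105.7, 103.5 and 105.4 CPM in E4F1 shRNA libraries and 70.9, 72.7 and 70.8 CPM in control shRNA libraries. The 2 groups stood far apart, and the libraries within each were close together. The mean was 105 ± 1.18 CPM against 71.5 ± 1.06 CPM in control shRNA libraries (SD, n = 3 each), a rise of 46.8% and a log2 fold change of 0.55 ± 0.05 (SE, with an adjusted p by edgeR of 1.28e-06). UQCRQ passed in each of the 19 other settings tried, with log2 fold changes from 0.53 to 0.64.

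Of the other 8 genes of complex III, 7 had log2 fold changes below 0 and UQCRB one above 0. UQCR11, a small membrane subunit, had 16.004, 17.989 and 14.740 CPM in E4F1 shRNA libraries and 18.632, 17.289 and 20.722 CPM in control shRNA libraries (log2 fold change −0.22 ± 0.10 SE, edgeR adjusted p = 0.117), and the groups overlapped. Without control library 2 it passed, at −0.27 with an adjusted p of 0.0455 in a range of 0.0455 to 0.837 over all settings. UQCR10, another small subunit, had 103.44, 100.04 and 97.21 CPM in E4F1 shRNA libraries, all under the 104.18, 112.44 and 110.93 CPM of the control shRNA libraries (−0.12 ± 0.06, edgeR adjusted p = 0.104). Among the subunits that carry electrons, UQCRFS1, the Rieske iron-sulfur protein, had a log2 fold change of −0.11 without overlap between groups, and CYC1, cytochrome c1, one of −0.02 with overlap. The core proteins UQCRC1 and UQCRC2 were at −0.10 and −0.05, UQCRH, the acidic hinge protein, at −0.11. UQCRB, another accessory subunit, had 132.8, 125.2 and 117.2 CPM against 114.0, 115.9 and 117.1 CPM in control shRNA libraries (0.11 ± 0.06, edgeR adjusted p = 0.150), with every E4F1 shRNA library the higher. With the GC offset UQCRFS1 passed, at −0.15 with an adjusted p of 0.0374 in a range of 0.0374 to 0.549 over all settings. Summed over the complex, the level was 999 ± 15.1 CPM in E4F1 shRNA libraries and 1003 ± 27.6 CPM in control shRNA libraries (SD, n = 3 each), a sum that holds both the higher UQCRQ and the 7 genes below 0.

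CYCS, at chr7:25120091-25125361 on the minus strand, encodes cytochrome c, the soluble carrier between complexes III and IV that also triggers apoptosis when it leaves mitochondria. It had 433.9, 469.4 and 411.6 CPM in E4F1 shRNA libraries and 354.8, 355.5 and 350.7 CPM in control shRNA libraries. All E4F1 shRNA libraries were above all control shRNA libraries, and they were also more scattered, with 438 ± 29.2 CPM against 354 ± 2.60 CPM in control shRNA libraries (SD, n = 3 each). The log2 fold change was 0.31 ± 0.06 (SE, with an adjusted p by edgeR of 0.000510). With the cell cycle level as a covariate the log2 fold change was 0.26 and the call was lost, at an adjusted p of 0.0669 in a range of 3.42e-07 to 0.0669 over all settings.

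Complex IV fell in 5 of its 11 genes, and none rose. COX4I1, at chr16:85798633-85807044 on the plus strand, encodes the largest nuclear-encoded subunit, at which ATP is known to inhibit the enzyme. It had 191.6, 192.8 and 187.1 CPM in E4F1 shRNA libraries and 243.9, 256.8 and 257.1 CPM in control shRNA libraries. The gap between the groups was several times the spread within either. The mean was 190 ± 3.01 CPM against 253 ± 7.55 CPM in control shRNA libraries (SD, n = 3 each), 24.6% lower, with a log2 fold change of −0.41 ± 0.05 (SE, with an adjusted p by edgeR of 1.69e-05). COX4I1 passed in each of the 19 other settings, with log2 fold changes from −0.43 to −0.34.

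The other 4 falls in complex IV were about as large as each other. COX7A2 (chr6:75237675-75250323, minus strand), a small membrane subunit, had 90.17, 99.98 and 97.88 CPM in E4F1 shRNA libraries and 109.05, 107.75 and 116.57 CPM in control shRNA libraries (log2 fold change −0.21 ± 0.06 SE, edgeR adjusted p = 0.0120). COX5B (chr2:97646040-97648383, plus strand), the zinc-binding subunit on the matrix side, had 82.1, 88.6 and 86.9 CPM in E4F1 shRNA libraries and 97.1, 101.2 and 98.0 CPM in control shRNA libraries (−0.20 ± 0.06, edgeR adjusted p = 0.0114). In neither gene did the groups overlap. COX7C (chr5:86617904-86620962, plus strand), a short single-span subunit, had 153.3, 169.6 and 166.9 CPM against 183.9, 181.7 and 197.1 CPM in control shRNA libraries (−0.20 ± 0.06, edgeR adjusted p = 0.0132). COX6B1 (chr19:35648223-35658861, plus strand), which links the monomers of the enzyme on the side of cytochrome c, had 110.3, 113.3 and 105.5 CPM against 121.1, 124.7 and 122.0 CPM in control shRNA libraries (−0.16 ± 0.05, edgeR adjusted p = 0.0305). Again every E4F1 shRNA library lay below every control shRNA library. All 4 calls were lost without E4F1 library 1, those of COX6B1, COX7A2 and COX7C also without control library 3, and that of COX6B1 without any other single library. All 4 were lost under each of the corrections for transcript length, whereas the COX4I1 call held there.

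Of the 6 complex IV genes that did not pass, COX7B and COX7A2L had the largest absolute log2 fold changes. COX7B, a subunit needed for assembly, had 152.9, 134.2 and 120.0 CPM in E4F1 shRNA libraries and 145.0, 154.4 and 150.6 CPM in control shRNA libraries (log2 fold change −0.15 ± 0.07 SE, edgeR adjusted p = 0.135), with E4F1 library 1 among the controls; without that library the log2 fold change was −0.23 and the adjusted p 0.0228, in a range of 0.00865 to 0.552 over all settings. COX7A2L, which joins complexes III and IV in supercomplexes, had 130.9, 144.3 and 131.7 CPM against 124.5, 120.5 and 127.4 CPM in control shRNA libraries (0.13 ± 0.06, edgeR adjusted p = 0.0955), and its groups did not overlap. COX5A, COX6A1, COX6C and COX8A had log2 fold changes from −0.12 to 0.08. Exons of COX8A overlap another gene on the same strand over 34.5% of their length, where reads can be ambiguous and go uncounted. The 11 genes summed to 1247 ± 32.9 CPM in E4F1 shRNA libraries and 1387 ± 19.2 CPM in control shRNA libraries (SD, n = 3 each), and every E4F1 shRNA library was below every control shRNA library.

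Complex V fell in 7 of its 15 genes, with 0 rises, and the falls differed in number between its parts. All 3 genes of the c-ring fell, as did 2 of 3 genes of the central stalk, 1 of 4 of the peripheral stalk and 1 of 3 small membrane subunits, while 0 of 2 genes of the catalytic head passed. Whether the parts differ from one another was not tested. The count of 7 was 3 without E4F1 library 1 and 4 without E4F1 library 2 or without control library 3. Calls over all genes tested fell in these settings too, from 28.9% to 19.6%, 18.8% and 19.7%.

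The c subunit is encoded by ATP5MC1, ATP5MC2 and ATP5MC3, which differ in their import sequences and give the same mature protein. ATP5MC1 (chr17:48892765-48895871, plus strand) had 45.6, 45.1 and 43.5 CPM in E4F1 shRNA libraries and 56.2, 53.5 and 60.3 CPM in control shRNA libraries, a log2 fold change of −0.34 ± 0.07 (SE, with an adjusted p by edgeR of 0.000894). ATP5MC2 (chr12:53632726-53677408, minus strand) had 115.3, 119.2 and 115.7 CPM against 141.6, 147.1 and 146.8 CPM in control shRNA libraries (−0.31 ± 0.05, edgeR adjusted p = 0.000232). For both, the groups were well separated, and the ATP5MC2 call held in each of the 19 other settings. ATP5MC3 (chr2:175176258-175184607, minus strand) had 131.9, 148.8 and 142.2 CPM against 162.1, 149.3 and 162.1 CPM in control shRNA libraries (−0.16 ± 0.06, edgeR adjusted p = 0.0444), where the highest E4F1 shRNA library nearly touched the lowest control shRNA library. This call was lost in 11 of the 19 other settings. Among these were DESeq2 and leaving out any 1 library other than control library 2. Together the 3 genes gave 292.8, 313.0 and 301.3 CPM in E4F1 shRNA libraries and 359.9, 350.0 and 369.2 CPM in control shRNA libraries. The summed level of the c subunit genes was 302 ± 10.1 CPM against 360 ± 9.63 CPM in control shRNA libraries (SD, n = 3 each).

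In the central stalk, which turns with the ring, the epsilon and delta subunits fell. ATP5F1E (chr20:59025467-59032382, minus strand; epsilon) had 251.2, 254.6 and 241.8 CPM in E4F1 shRNA libraries and 279.3, 285.8 and 302.3 CPM in control shRNA libraries, a log2 fold change of −0.21 ± 0.05 (SE, with an adjusted p by edgeR of 0.00527). ATP5F1D (chr19:1241746-1244826, plus strand; delta) had 18.5, 20.3 and 22.5 CPM against 22.1, 24.0 and 27.6 CPM in control shRNA libraries (−0.27 ± 0.10, edgeR adjusted p = 0.0484). Groups were separate for ATP5F1E and overlapped for ATP5F1D, whose highest E4F1 shRNA library was above the lowest control shRNA library. The ATP5F1D call was lost in 12 of the 19 other settings. These were DESeq2, limma-voom, library totals, counts ignoring strand, the GC offset with and without the replicate block, each length correction and the cell cycle covariate. The others were those without E4F1 library 1, E4F1 library 2 or control library 3. ATP5F1C, the gamma subunit that forms the shaft, had a log2 fold change of 0.07 ± 0.05 (SE, with an adjusted p by edgeR of 0.366). In the catalytic head, ATP5F1A and ATP5F1B, the alpha and beta subunits between which ATP forms, were at −0.02 and −0.03 with overlapping groups.

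In the peripheral stalk, which keeps the head from turning, ATP5PF (chr21:25716503-25735673, minus strand; coupling factor 6) fell. It had 82.9, 88.2 and 80.9 CPM in E4F1 shRNA libraries and 97.8, 92.9 and 104.3 CPM in control shRNA libraries (log2 fold change −0.23 ± 0.06 SE, edgeR adjusted p = 0.00934), with no overlap, and the call was lost without E4F1 library 1 or E4F1 library 3. ATP5PB, the b subunit, had 276.3, 280.0 and 257.1 CPM against 251.8, 248.3 and 254.1 CPM in control shRNA libraries (0.11 ± 0.05, edgeR adjusted p = 0.128), and each E4F1 shRNA library was the higher. Without E4F1 library 3 it passed, at 0.15 with an adjusted p of 0.0447 in a range of 0.0447 to 0.602 over all settings. ATP5PD, the d subunit, had 138.4, 143.9 and 137.0 CPM against 150.1, 146.5 and 151.6 CPM in control shRNA libraries (−0.10 ± 0.05, edgeR adjusted p = 0.175), again without overlap but in the other direction. With the GC offset ATP5PD passed, at −0.14 with an adjusted p of 0.0482 in a range of 0.0482 to 0.923 over all settings. ATP5PO, the subunit through which the stalk grips the head, was at −0.09. Among the small membrane subunits, which help to hold the synthase in dimers, ATP5MG (chr11:118401154-118431496, plus strand; subunit g) had 109.0, 114.3 and 108.0 CPM in E4F1 shRNA libraries and 116.9, 124.8 and 134.3 CPM in control shRNA libraries (−0.18 ± 0.06, edgeR adjusted p = 0.0270), with no overlap, and this call was lost without any 1 E4F1 shRNA library and without control library 3. ATP5ME and ATP5MF, subunits e and f, were at −0.06 and −0.08 with overlapping groups.

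**Figure D2:**
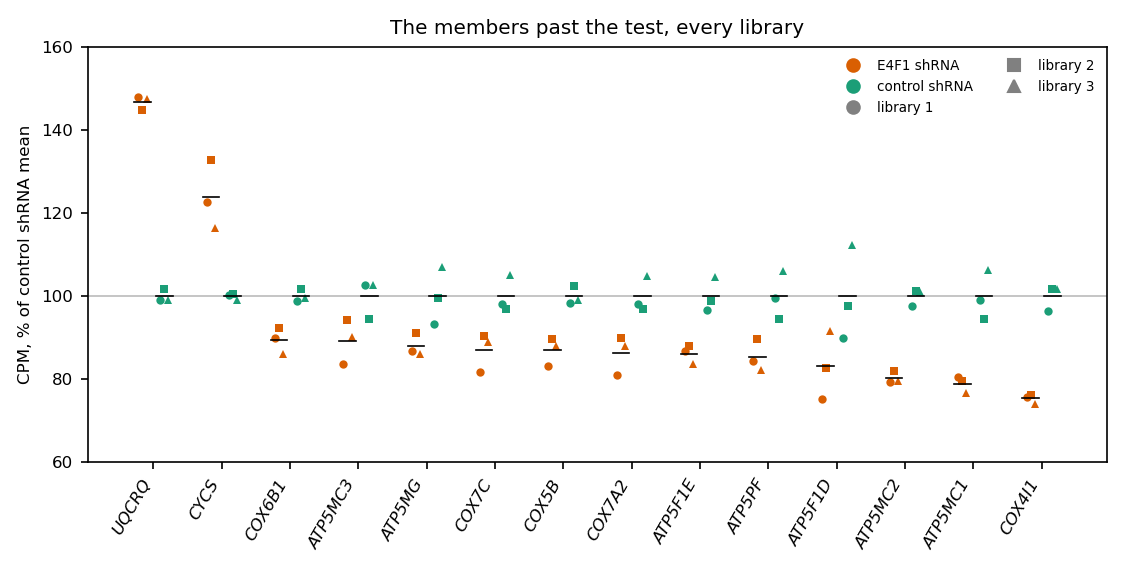
CPM of the 14 genes past the test in every library, as a percentage of the mean of the 3 control shRNA libraries, with bars at the group means. The E4F1 shRNA libraries lie above the controls for UQCRQ and CYCS and below them for the other 12 genes, with overlap for ATP5F1D alone.

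The complexes were set beside each other by the mean log2 CPM of their genes in each library, each gene first centred on its own mean over the 6 libraries. For complex IV the E4F1 shRNA libraries were at −0.08, −0.01 and −0.08 and the control shRNA libraries at 0.04, 0.06 and 0.07. For complex V they were at −0.09, −0.02 and −0.08 and the control shRNA libraries at 0.04, 0.05 and 0.11. The groups did not overlap for either complex, and E4F1 library 2 was the closest to the controls in both. For complex II the E4F1 shRNA libraries were at −0.01, 0.05 and −0.03 and the control shRNA libraries at 0.01, −0.0046 and −0.0032. For complex III they were at −0.01, 0.03 and −0.03 and the control shRNA libraries at −0.03, −0.0007 and 0.04. In complexes II and III the groups overlapped. The differences in mean, E4F1 shRNA minus control shRNA, were 0.0007 for complex II, −0.007 for complex III, 0.31 for CYCS, −0.12 for complex IV and −0.13 for complex V, and −0.01 over all genes tested. Medians of the log2 fold changes gave another order: 0.016 for complex II, −0.10 for complex III, with 7 of 9 genes below 0, −0.15 for complex IV, with 9 of 11 below 0, and −0.10 for complex V, with 13 of 15 below 0. UQCRQ at 0.55 enters the mean of complex III and hardly its median. With 3 libraries against 3, no exact permutation test can give a p below 0.1, and the differences between complexes were not tested.

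**Figure D3:**
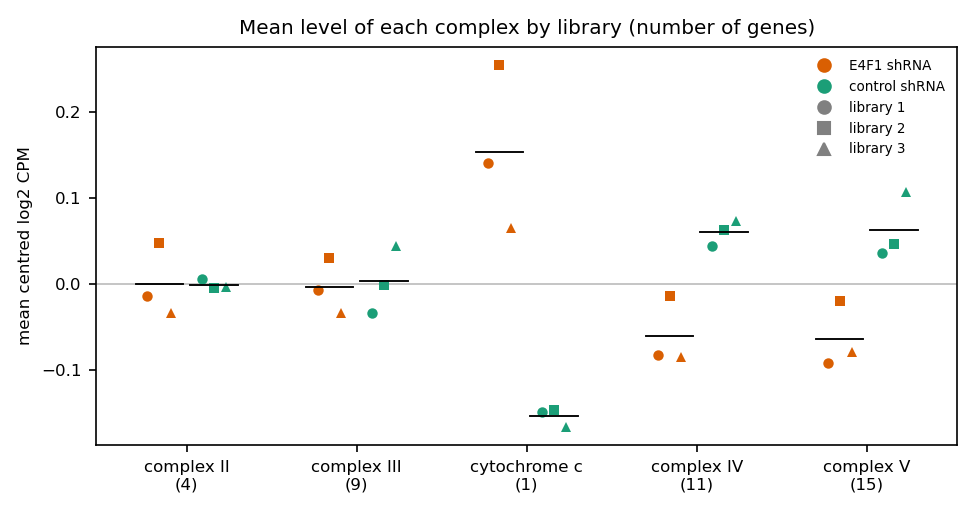
Mean centred log2 CPM of the genes of each complex in every library (symbols) with bars at the group means, E4F1 shRNA left of control shRNA. Complexes IV and V show E4F1 shRNA libraries below all control shRNA libraries, cytochrome c above them, and complexes II and III overlap.

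Levels between genes can be compared only per length, so CPM was divided by the median transcript length in kilobases. On this scale, CPM per kilobase (RPKM), CYCS was the highest of the 40 genes in both groups, with a level of 450 ± 29.9 in E4F1 shRNA libraries and 363 ± 2.66 in control shRNA libraries (SD, n = 3 each). ATP5F1B had rank 2 in both, at 324 ± 15.9 RPKM in E4F1 shRNA libraries and 332 ± 1.84 RPKM in control shRNA libraries, a difference within the spread of the libraries. COX4I1 had rank 5 in E4F1 shRNA libraries, at 240 ± 3.79 RPKM, and rank 3 in control shRNA libraries, at 318 ± 9.51 RPKM. UQCRQ took rank 13 in E4F1 shRNA libraries, at 179 ± 2.01 RPKM, and rank 28 in control shRNA libraries, at 122 ± 1.81 RPKM. UQCR11 was the lowest in both groups, at 21.6 ± 2.18 RPKM in E4F1 shRNA libraries and 25.1 ± 2.30 RPKM in control shRNA libraries. The median is taken over annotated transcripts, expressed or not, and the ranks depend on it. For CYCS it is 974 bases, against 4457 bases for all exons joined. The 40 genes held 0.547% to 0.574% of the reads in genes in E4F1 shRNA libraries and 0.571% to 0.583% in control shRNA libraries.

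The genes have short transcripts, and short transcripts as a class fell more often than they rose in E4F1 shRNA libraries. Of 1023 tested protein-coding genes with a median transcript under 1000 bases, 8.21% rose and 22.3% fell, with a median log2 fold change of −0.08. In the same class lay 28 of the 40 genes, of which 2 rose and 11 fell, with a median of −0.12. Of the 3410 genes of 4000 bases or more, 24.5% rose and 13.2% fell, with a median of 0.05, and none of the 40 genes was among them. Of the 9 genes between 1000 and 2000 bases, ATP5F1E alone passed. These classes use the same median over annotated transcripts, expressed or not. With a correction for median transcript length, complex IV had 3 calls (COX4I1 down, COX6A1 and COX7A2L up) and complex V 3 (ATP5F1E, ATP5MC1 and ATP5MC2, all down). With a correction for the length of all exons joined, COX4I1 was the only call in complex IV and 6 genes of complex V fell.

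**Figure D4:**
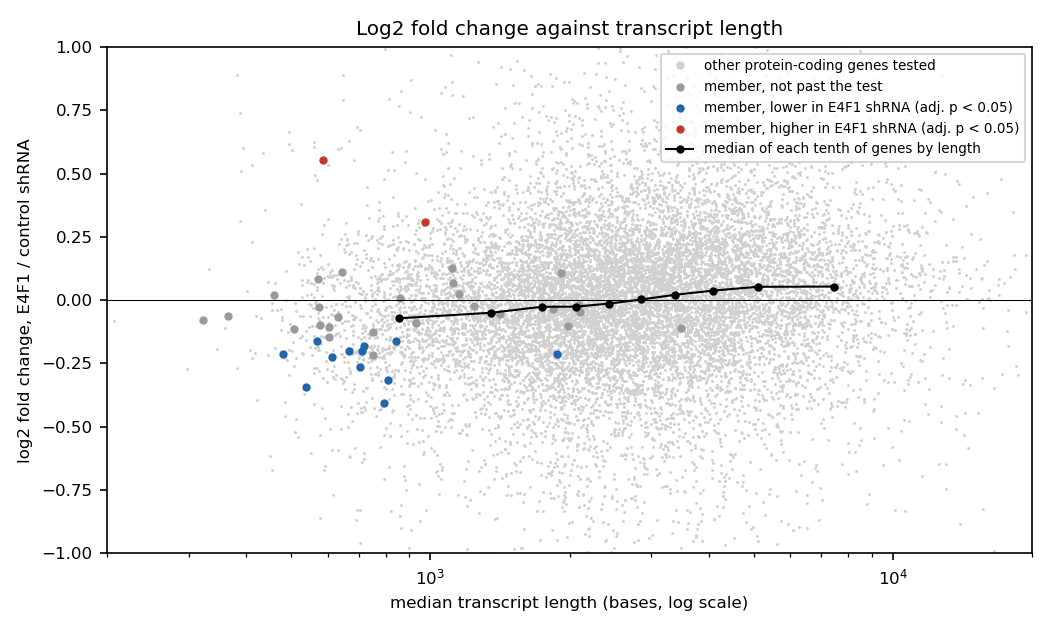
Log2 fold change, E4F1 shRNA over control shRNA, against median transcript length on a log axis for the tested protein-coding genes (genes outside the axes are not drawn), with the 40 genes in grey, blue or red and a line through the medians of equal-sized groups of genes by length. The line climbs with length, and among the shortest transcripts most of the 12 falls lie below it and UQCRQ above it. With a correction for median transcript length, 8 of the 12 falls lost their call.

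The subunits of complexes III to V that mitochondrial DNA encodes were lower as well: 5 of 6 fell, where 14.4% of all genes tested did so. MT-CO3, a core subunit of complex IV, had 6379, 5814 and 5452 CPM in E4F1 shRNA libraries and 7352, 7018 and 7656 CPM in control shRNA libraries (log2 fold change −0.32 ± 0.06 SE, edgeR adjusted p = 0.00118). MT-CO1, which holds the site where oxygen is reduced, was at −0.29 ± 0.06 (SE, with an adjusted p by edgeR of 0.00145), MT-CO2, which receives electrons from cytochrome c, at −0.33 ± 0.07 (0.00172) and MT-CYB, cytochrome b of complex III, at −0.25 ± 0.06 (0.00679). MT-ATP6, the proton channel of complex V, was at −0.17 (edgeR adjusted p = 0.0442), and MT-ATP8 at −0.08 did not pass. Libraries were made from polyadenylated RNA, in which mitochondrial transcripts are read through their short tails. The median over the 6 genes was −0.27, and the groups did not overlap for the 5 that fell. With the correction for the length of all exons joined 3 of the 6 passed, and with the cell cycle covariate 1, against 28.4% and 5.59% of all genes tested.

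Of 13 further subunits and tissue isoforms, 5 had enough reads to be tested and 2 fell (40%, against 14.4% of all genes tested). NDUFA4, now counted as a complex IV subunit, had 128.7, 145.3 and 143.4 CPM in E4F1 shRNA libraries and 161.2, 157.1 and 163.9 CPM in control shRNA libraries (log2 fold change −0.21 ± 0.06 SE, edgeR adjusted p = 0.0107). ATP5MPL, a small proteolipid of complex V, was at −0.19 ± 0.07 (SE, with an adjusted p by edgeR of 0.0439). Neither gene's groups overlapped, and with any 1 library left out the list had 0 or 1 calls, where 18.8% to 33.4% of all genes tested passed. The isoforms COX4I2, COX6A2, COX6B2, COX7A1, COX7B2 and COX8C, known from muscle, lung or testis, had at most 3 reads in any library. ATP5IF1, which inhibits the synthase, was at 0.11 and did not pass.

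Assembly factors did not share a direction: of 48 tested, 5 rose and 5 fell, with a median log2 fold change of −0.02. The share that passed was 20.8%, against 28.9% of all genes tested. CMC2, a complex IV assembly factor known from yeast, had 62.8, 63.8 and 56.6 CPM in E4F1 shRNA libraries and 40.9, 44.1 and 35.7 CPM in control shRNA libraries (0.60 ± 0.08 SE, edgeR adjusted p = 2.57e-05). ATPAF1, the chaperone of the beta subunit of complex V, had 74.4, 74.1 and 67.2 CPM against 54.4, 56.4 and 53.3 CPM in control shRNA libraries (0.39 ± 0.06, edgeR adjusted p = 0.000183). UQCC1, needed for translation of cytochrome b, had 45.5, 47.7 and 46.9 CPM against 60.8, 56.9 and 61.2 CPM in control shRNA libraries (−0.35 ± 0.06, edgeR adjusted p = 0.000451). CMC2 and ATPAF1 were higher, and UQCC1 lower, in all 3 E4F1 shRNA libraries than in any of the controls. SDHAF2, which inserts the flavin into SDHA, had 5.85, 7.90 and 5.30 CPM against 8.08, 8.27 and 8.98 CPM in control shRNA libraries (−0.41 ± 0.15, edgeR adjusted p = 0.0432). For complex IV, COX11, which delivers copper, COX20, a chaperone of MT-CO2, and COA1 also rose, by 0.16 to 0.22 on the log2 scale, while COA3, HIGD2A and COA5 fell, with log2 fold changes from −0.29 to −0.20. SCO2, which delivers copper to complex IV, had at most 1 read in any library under the gene ID used and was not tested. Another gene ID carries the same symbol, but the ID with more reads was taken, so the other held no more in total. The count of 10 changed genes was 6 without E4F1 library 1, without E4F1 library 2, without control library 1 and without control library 3. In these settings 18.8% to 21.8% of all genes tested passed, against 28.9% with all libraries.

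Of 14 regulators of respiratory chain genes, 4 rose (28.6%) and 1 fell (7.14%), against 14.4% of all genes tested in each direction. GABPA, an ETS factor known to bind promoters of respiratory genes, had 51.87, 54.98 and 53.35 CPM in E4F1 shRNA libraries and 42.27, 48.72 and 42.73 CPM in control shRNA libraries (log2 fold change 0.26 ± 0.07 SE, edgeR adjusted p = 0.00901). PPARGC1A, the coactivator PGC-1 alpha, was low in both groups, with 2.74, 2.02 and 2.01 CPM against 1.27, 1.42 and 1.28 CPM in control shRNA libraries (0.76 ± 0.24, edgeR adjusted p = 0.0230). CREB1 was at 0.20 ± 0.06 (SE, with an adjusted p by edgeR of 0.0266) and TFB2M, a mitochondrial transcription factor, at −0.22 ± 0.08 (0.0357). NRF1, the nuclear respiratory factor whose motif is given above, also rose, by 0.24 on the log2 scale (edgeR adjusted p = 0.0431). GABPA and PPARGC1A had separate groups, with every E4F1 shRNA library the higher. DESeq2 called 2 of the 14 and the fit with the cell cycle covariate 0, and leaving out 1 library gave 1 to 5 calls, with 1 without E4F1 library 1, E4F1 library 2 or control library 3, and 3 without E4F1 library 3 or control library 1. Over all genes tested, DESeq2 called 23.6%, the cell cycle fit 5.59% and the fits without 1 library 18.8% to 33.4%.

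Complex I, which feeds electrons into the chain beside complex II, served as the neighbour for comparison. Of 36 nuclear-encoded subunits tested, 2 rose and 3 fell, with a median log2 fold change of −0.07, and 26 of the 36 values were below 0. The share that passed was 13.9%, against 28.9% of all genes tested. NDUFS3, a core subunit, had 69.6, 74.7 and 72.8 CPM in E4F1 shRNA libraries and 29.8, 36.8 and 30.0 CPM in control shRNA libraries, with no overlap (1.17 ± 0.08 SE, edgeR adjusted p = 1.28e-08). NDUFS1 rose by 0.17, and NDUFS6 and NDUFA2 fell, with log2 fold changes of −0.21 and −0.23, as did NDUFS8 at −0.19. Leaving out 1 library gave 2 to 5 calls, with 2 without E4F1 library 2 or control library 3 and 3 without E4F1 library 1, E4F1 library 3 or control library 1. The share of all genes tested that passed was then 18.8% to 33.4%. As in complex III, the largest change in complex I was a rise of 1 gene that stood apart from the others of its complex.

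**Figure D5:**
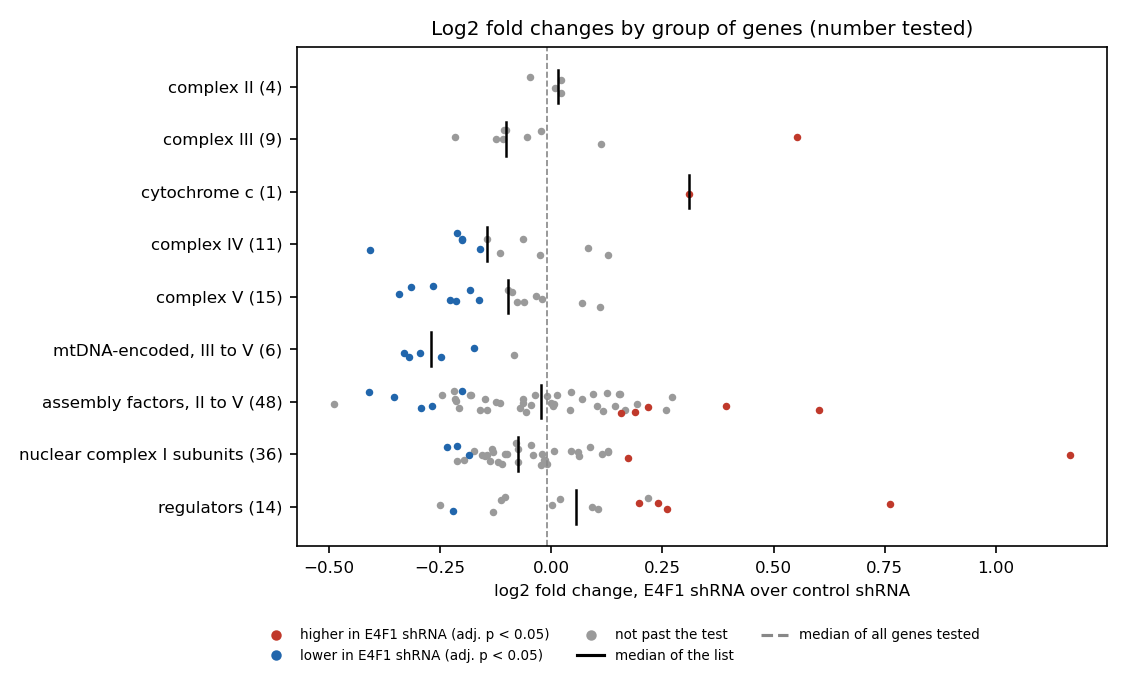
Log2 fold changes, E4F1 shRNA over control shRNA, of every tested gene in the complexes and in the related lists, with black bars at list medians and the dashed line at the median of all genes tested. The mtDNA-encoded list lies lowest, at a median of −0.27, the complex IV and V points lie mostly to the left, and NDUFS3, PPARGC1A, CMC2 and UQCRQ stand out to the right.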

How the data were processed

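Counts of reads per gene were deposited by the authors as 1 table per library. Per the submitters' processing notes, bcl2fastq 2.20 and STAR 2.5.1b were used with GRCh38, and the annotation release is not stated in the labels or file headers. The column of reverse-strand counts was used because it held 14947085 to 16892139 reads in genes per library and the forward one 885046 to 977742, so antisense genes were counted apart. Lines that name no gene held 27.1% to 31.7% of the reads and were left out. Symbols, coordinates and transcript lengths came from GENCODE release 29 (57881 of 58219 IDs matched without version), and promoters from RefSeq GRCh38.p14.

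The two-sided quasi-likelihood test of edgeR 4.0.16 under R 4.3.3 compared the groups, with no covariate, after filterByExpr and TMM scaling, and p-values were adjusted by Benjamini-Hochberg over 15765 genes (threshold 0.05). The fit was also run on counts simulated from the means and dispersions of these data, with 200 genes changed. No trend with length or GC was put into them, so that run cannot show the effect of such trends. CPM is TMM-scaled. For centring, 0.5 CPM was added before the log. RPKM is CPM per kilobase of the median protein-coding transcript.

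The 40 genes and the 13 other lists were chosen with earlier results of these data known, so their counts are descriptions. Named were E4F1, every subunit gene past the threshold, the 2 largest changes per complex among the others, and up to 4 genes per list by adjusted p. Further genes that passed in a list are named by choice after their values were seen. Alternatives were DESeq2 1.42.0, limma-voom (limma 3.58.1), other scalings and filters, a replicate block, GC and length corrections, counts ignoring strand, a cell cycle covariate and leaving out each library.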

Additional observations from a re-analysis of the deposited data

How the results depend on the processing

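The E4F1 log2 fold change lay between −2.63 and −2.39 in every setting. Of the 14 subunit genes past the threshold, 14 were kept with the replicate block and with a stricter low-count filter, 13 with limma-voom or with DESeq2 size factors, 12 with DESeq2, library totals, no low-count filter or counts ignoring strand, 11 with the GC offset and 3 with the cell cycle covariate, and none changed sign in any setting. Leaving out 1 library gave 7 to 14 calls (5 to 12 down), 1 to 2 in complex III, 2 to 4 in complex IV and 3 to 7 in complex V. It gave 6 to 11 calls among assembly factors, 0 to 1 among further subunits, 1 to 5 among regulators and 2 to 5 in complex I. Of all genes tested, 18.8% to 33.4% then passed, against 28.9% with all libraries. Medians then ran from −0.017 to 0.038 for complex II and from −0.16 to −0.11 for complex IV. Uncalled genes that turned sign ran from −0.0059 to 0.072 (SDHC), −0.051 to 0.057 (SDHD), −0.059 to 0.041 (CYC1), −0.070 to 0.017 (COX5A), −0.049 to 0.011 (ATP5F1A) and −0.070 to 0.0050 (ATP5F1B).

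With the cell cycle covariate there were 3 calls (1 up, 2 down), with 1 in complex IV, 1 in complex V and 0 for CYCS, and 3 among assembly factors, 1 among mtDNA-encoded genes, 1 in complex I, 0 among further subunits and 0 among regulators; SDHC at −0.037, UQCRH at 0.017, COX6C at 0.012, ATP5F1C at −0.039 and ATP5PO at 0.020 turned sign. With the transcript length offset there were 9 calls (5 up, 4 down), 2 in complex III, 3 in IV and 3 in V, and 2 regulators, the medians were 0.075 for complex II, −0.021 for III, −0.060 for IV and −0.025 for V, and CYC1 at 0.025, COX5A at 0.062, COX6C at 0.018, ATP5ME at 0.049 and ATP5MF at 0.040 turned. With the exon-union length offset there were 9 calls (7 down), 1 in complex IV, 3 among mtDNA-encoded genes, 1 among further subunits and 3 among regulators, the medians were −0.027 for complex III and −0.061 for IV, and SDHC at −0.024, CYC1 at 0.037, COX5A at 0.055, COX8A at 0.010, ATP5F1B at 0.015 and ATP5ME at 0.037 turned. Both length offsets were chosen after the data were seen.

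With the GC offset complex III had 3 calls and the regulators 3, the medians were −0.037 for complex II, −0.14 for V and 0.23 for CYCS, and SDHC at −0.047, SDHD at −0.081, UQCRC1 at 0.027, CYC1 at 0.15, UQCRB at −0.011, COX6A1 at −0.010, COX8A at 0.0032, ATP5F1B at 0.0042, ATP5ME at 0.032 and ATP5MF at 0.036 turned. CYC1 then passed upward. With the GC offset and the replicate block together complex III had 3 calls, complex I 3 and the regulators 2, the medians were −0.037, −0.14 and 0.22, and SDHC at −0.048, SDHD at −0.083, UQCRC1 at 0.028, CYC1 at 0.15, UQCRB at −0.012, COX6A1 at −0.010, COX8A at 0.0027, ATP5F1B at 0.0030, ATP5ME at 0.031 and ATP5MF at 0.035 turned. Ignoring strand left ATP5ME at 0.012. DESeq2 gave 3 calls in complex I, 1 among further subunits and 2 among regulators, and no low-count filter gave 3 in complex I and 1 among further subunits. The cause of these shifts was not tested. In their deviations from group means, libraries with the same number correlated at 0.007, 0.047 and 0.048. Those with different numbers correlated at −0.11 to 0.08. With 3 libraries per group, these values cannot decide if the numbers mark pairs. The replicate block left 14 calls (2 up, 12 down) and moved the calls over all genes to 4865, against 4550 without it. UQCR11 and ATP5F1D, the genes with fewest reads, had the largest standard errors of the 40, 0.10 each.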

Other observations

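Position in the genome was read from GENCODE release 29. For 4 of the 40 genes, a tested protein-coding gene on the opposite strand started within 1000 bases upstream of their own start. Partners that start inside the gene, are non-coding or were not tested were not counted. LRRC41, 23 bases from UQCRH, had 46.5, 51.9 and 54.9 CPM in E4F1 shRNA libraries and 58.8, 58.5 and 65.6 CPM in control shRNA libraries (log2 fold change −0.25 ± 0.07 SE, edgeR adjusted p = 0.0137). ZMAT5, 358 bases from UQCR10, was at −0.34 ± 0.12 (SE, with an adjusted p by edgeR of 0.0401). Both partners fell without overlap between the groups, while UQCRH and UQCR10 themselves were at −0.11 and −0.12 and did not pass. CCDC127, 26 bases from SDHA, and KIN, 148 bases from ATP5F1C, were at −0.04 and −0.0014 and did not pass.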
